A study of Rattus norvegicus with 12 samples.

Results

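Carriers, efflux pumps and tight junction proteins of the blood-brain barrier were followed at the RNA level in the central nucleus of the amygdala (CeA) of rats exposed to chronic intermittent ethanol (CIE) vapor and of rats kept in air. The set was chosen by name and holds 10 genes, of which 9 were found under their own symbol among the 37209 genes listed, and all 9 had enough counts to be tested among 20944 genes. The tenth, *Slco1a4*, has no row of its own. RefSeq gives the listed name *Slco1a2* as a synonym of *Slco1a4* and also of *Slco1a5*, which has its own row with 6 to 26 counts per rat, so the match is ambiguous and the *Slco1a2* row is described separately. RNA was sequenced from 12 male, wild-type Sprague Dawley rats of 14 to 16 weeks, 6 that breathed ethanol vapor intermittently (CIE group, rats 1 to 6) and 6 that breathed air (Control group, rats 7 to 12), with tissue taken at the end of the last exposure. Each library came from a bulk punch of 1 rat, so fewer barrier cells and less RNA per cell cannot be told apart, and the vapor was given to the animal rather than drunk by choice. Total counts ran from 39082548 to 95647601 per rat and did not separate the groups (two-sided exact permutation test of the means, p = 0.816). Of 10 genes used as markers of CeA neurons, among them *Prkcd*, *Sst*, *Penk*, *Drd1* and *Drd2*, 9 were tested. Their summed level ran from 631 to 2477 counts per 1000000 (CPM) in CIE rats and from 688 to 2826 CPM in Control rats. At an edgeR nominal p below 0.05, 0 rose and 1 fell, beside 4.0% and 4.31% of all genes, and the median log2 fold change was 0.12. Whether these genes are particular to the CeA was not tested, and their sum varied widely within both groups.

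Brain capillaries are lined by endothelial cells that are sealed to each other and that let few molecules cross by diffusion. Nutrients, hormones and lipids enter through dedicated carriers, ATP-driven pumps return drugs and metabolites to the blood, and claudins and occludin, held by zonula occludens scaffolds, close the space between cells. Endothelial cells acquire and keep these properties under Wnt signals from neural cells, and pericytes and astrocyte endfeet surround the capillary wall. Several of the genes are also transcribed outside the endothelium in brain, *Slco1c1* and *Slc2a1* in astrocytes among them, so a level in a punch is not a level in endothelium.

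Promoter sequences are shown for 1 gene of each role, to set side by side the efflux pump *Abcg2*, which had the highest log2 fold change of the set, the carrier *Slc2a1*, with a small one, and the junction gene *Cldn5*, with one near 0. RefSeq windows on the GRCr8 assembly, which is not the Rnor_6.0 build of the counts, cover 250 bases before and 50 bases after 1 annotated start, and 8 of the 10 genes matched by symbol. The windows are written 5′ to 3′ on the strand of the gene, with capitals marking the letters GGGCGG (GC box), TGACGTCA (cAMP response element, CRE) and CCAAT or their reverse complements.
Abcg2, chr4:89075224-89075523, plus strand: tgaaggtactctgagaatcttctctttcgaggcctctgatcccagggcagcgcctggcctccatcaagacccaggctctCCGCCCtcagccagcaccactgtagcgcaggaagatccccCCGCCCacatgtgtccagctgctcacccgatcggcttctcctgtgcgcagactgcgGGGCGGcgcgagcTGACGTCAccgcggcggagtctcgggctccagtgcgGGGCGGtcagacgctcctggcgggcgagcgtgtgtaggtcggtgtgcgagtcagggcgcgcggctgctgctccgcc
Slc2a1, chr5:138002272-138002571, plus strand: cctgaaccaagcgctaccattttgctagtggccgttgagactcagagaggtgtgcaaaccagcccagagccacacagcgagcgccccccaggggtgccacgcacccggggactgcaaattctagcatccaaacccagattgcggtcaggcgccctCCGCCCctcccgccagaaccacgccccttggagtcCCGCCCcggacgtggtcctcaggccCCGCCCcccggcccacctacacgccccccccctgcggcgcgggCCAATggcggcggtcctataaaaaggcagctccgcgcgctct
Cldn5, chr11:95718549-95718848, minus strand: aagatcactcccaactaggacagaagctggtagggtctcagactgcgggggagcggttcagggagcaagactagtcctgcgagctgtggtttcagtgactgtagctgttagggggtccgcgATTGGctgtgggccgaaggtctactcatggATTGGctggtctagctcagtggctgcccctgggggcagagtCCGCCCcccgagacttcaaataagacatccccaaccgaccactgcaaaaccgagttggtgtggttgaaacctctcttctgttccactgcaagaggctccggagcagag
The *Abcg2* window held 1 CRE at 62 bases before the start (offset -62) and 4 GC boxes, the *Slc2a1* window held 3 GC boxes and 1 CCAAT, and the *Cldn5* window held 1 GC box and 2 CCAAT, both on the opposite strand. Of 33469 windows of the same length, 1.83% held the CRE, 33.1% a GC box and 37.5% a CCAAT. GC content was 68% for *Abcg2*, 68.3% for *Slc2a1* and 57.7% for *Cldn5*. Across the 8 windows a GC box was present in 5 (*Abcb1a*, *Abcg2*, *Slc2a1*, *Cldn5* and *Slc7a5*) and a CCAAT in 3 (*Slco1a4*, *Slc2a1* and *Cldn5*). The letters TNGCGTG, the xenobiotic response element, were in 2 of 8 (*Ocln* and *Slc7a5*; 4.89% of all windows), and NACGTGC, the hypoxia response element, in 1 (*Slc7a5*; 5.71%). The TCF/LEF letters CTTTGAT (3.63% of all windows), the ETS letters CCGGAAGT (3.81%), the forkhead letters TGTTTAC (3.78%), the SOX letters AACAATNG (2.55%), the NF-kB element (1.53%) and the glucocorticoid receptor element (0.439%) were in 0 of 8. All motifs were searched on both strands, with overlaps between motifs allowed. For 4 of the 8 genes, *Abcg2* included, the start used lies over 1000 bases inside the RefSeq gene span. A match is a run of letters and was not tested as a binding site.

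Between the CIE and Control groups, 2 carriers and both efflux pumps were higher at a nominal p value below 0.05, 1 carrier was lower, and the 3 tight junction genes did not pass that level. None of these differences passed the 5% FDR in the main test, the quasi-likelihood F test of edgeR on TMM-scaled counts with Benjamini-Hochberg adjustment over all 20944 genes. That test called 0 of the 9 genes, where it called 0.363% of all genes, while 5 of 9 had a nominal p below 0.05 against 8.31% of all genes. The 4 higher genes stand beside 4.0% of all genes that were nominally higher, and the 1 lower gene beside 4.31% that were nominally lower. When counts were scaled by library size alone, the share of higher genes among all nominal genes was 60.3% in place of 48.1%, and the split of the 9 barrier genes was the same, 4 higher and 1 lower. DESeq2 called 3 of the 9 at a 5% FDR (*Abcg2*, *Mfsd2a* and *Slco1c1*; 1.18% of all genes it tested), and limma-voom with sample quality weights called 1 (*Mfsd2a*; 1.12% of all genes). No gene of the 9 had CPM ranges that were apart between the groups, which 0.893% of all genes had. The median log2 fold change over the 9 was 0.04, and it was 0.00 over all genes.

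**Figure D1:**
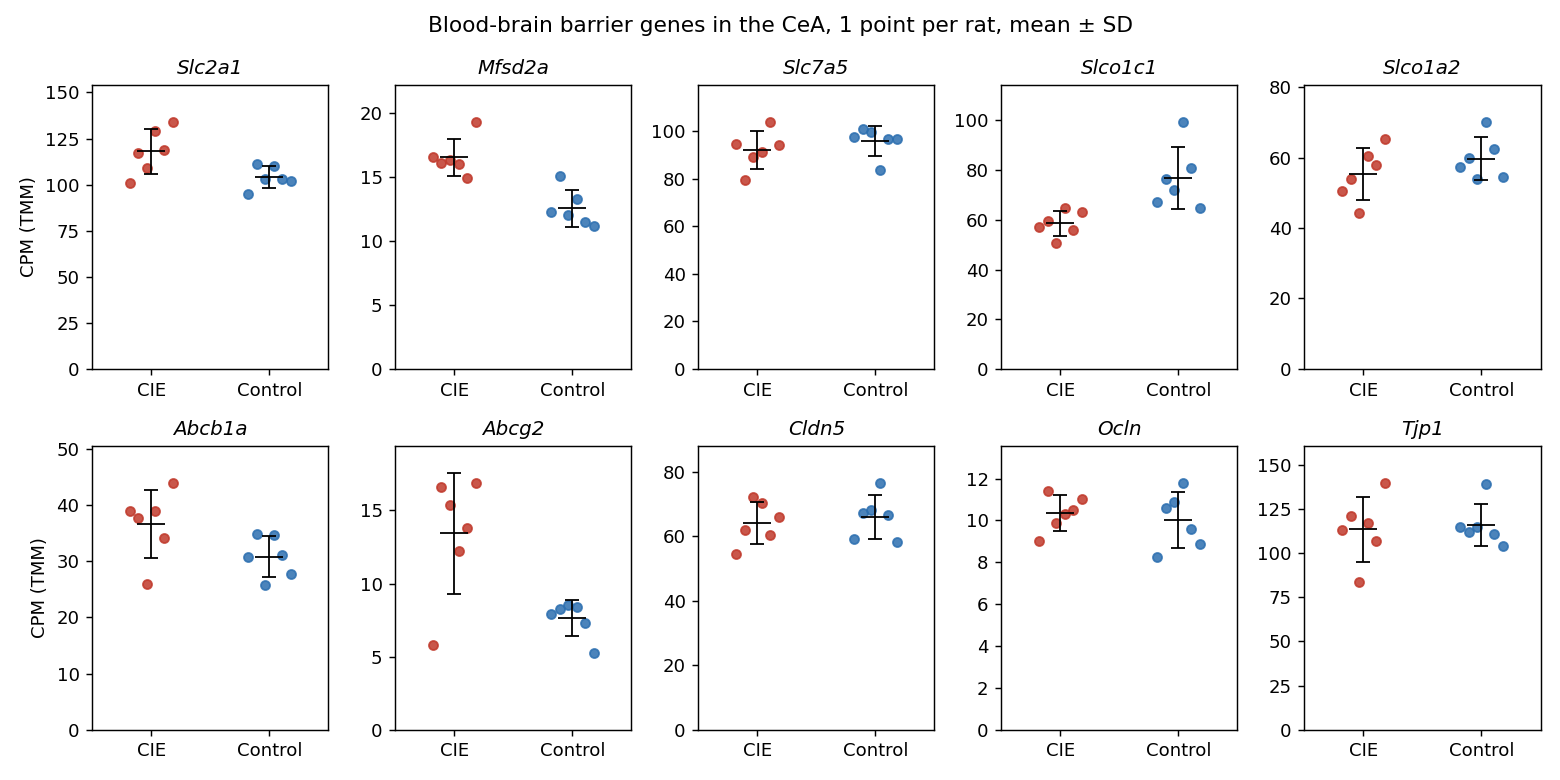
CPM of each barrier gene (vertical axes from 0, TMM-scaled) in the 6 CIE and 6 Control rats, with 1 point per rat and bars at the mean ± SD. In all 10 panels the groups overlap, 5 of the 6 CIE points lie above all Control points for *Mfsd2a* and *Abcg2*, and 5 lie below all Control points for *Slco1c1*.

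*Mfsd2a*, the carrier of lysophosphatidylcholine with docosahexaenoic acid, whose protein also holds down transcytosis in brain endothelium, had the smallest p value of the set. Its lowest, median and highest CPM were 14.9, 16.2 and 19.3 in CIE rats and 11.2, 12.1 and 15.1 in Control rats. Of the 6 CIE rats 5 lay above every Control rat, and the ranges touched through 1 high Control rat. The group means were 16.5 ± 1.47 and 12.5 ± 1.42 CPM (SD, n = 6 each), which gave a log2 fold change of 0.40 (SE 0.09, edgeR FDR = 0.0863), rank 114 of all genes by p. The exact permutation test of the CPM means, two-sided over all assignments of 6 rats to a group, gave p = 0.00433. With 1 rat left out at a time, the edgeR FDR ran from 0.0428 (without Control rat 8, the highest Control) to 0.235 (without Control rat 9).

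*Slc2a1* encodes GLUT1, the glucose carrier of the barrier. Its CPM was 101, 118 and 134 at the lowest, median and highest in CIE rats and 94.8, 103 and 111 in Control rats. In the CIE group 4 of 6 rats exceeded the whole Control range. The means were 118 ± 12 and 104 ± 5.9 CPM (SD, n = 6 each), with a log2 fold change of 0.19 (SE 0.07, edgeR nominal p = 0.0222, FDR = 0.492, exact permutation p = 0.0368). The nominal p stayed below 0.05 in 10 of 12 fits that left out 1 rat and reached 0.0551 without CIE rat 4. *Slc7a5*, the light chain of the large neutral amino acid carrier LAT1, had 79.5, 92.9 and 104 CPM in CIE rats and 83.8, 97.3 and 101 CPM in Control rats. The ranges overlapped almost fully, with a log2 fold change of -0.06 (SE 0.07, edgeR FDR = 0.878, exact permutation p = 0.39) and an interval of 2 SE to each side from -0.20 to 0.08.

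*Slco1c1* encodes the thyroxine carrier OATP1C1 and was the 1 gene of the 9 that was nominally lower. The CIE group had 50.6, 58.3 and 64.9 CPM and the Control group 64.7, 74.2 and 99.4 CPM at the lowest, median and highest. In the CIE group 5 of 6 rats fell short of the whole Control range, and the sixth overlapped the lowest Control rat by a small margin. The means were 58.5 ± 5.21 and 76.8 ± 12.5 CPM (SD, n = 6 each), with a log2 fold change of -0.39 (SE 0.10, edgeR nominal p = 0.00154, FDR = 0.164, exact permutation p = 0.00433). All 12 fits without 1 rat kept a nominal p below 0.05, with an edgeR FDR from 0.114 to 0.347. The *Slco1a2* row, an organic anion carrier that may hold the reads of *Slco1a4*, had 44.2, 55.9 and 65.3 CPM in CIE rats and 53.9, 58.6 and 70.1 CPM in Control rats. These ranges overlapped over most of their width (log2 fold change -0.11, SE 0.09, edgeR FDR = 0.825, exact permutation p = 0.301), and reads that map equally to other genes of this family cannot be placed from the counts.

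Both efflux pumps were nominally higher in the CIE group. *Abcg2*, the breast cancer resistance protein (BCRP), had 5.8, 14.6 and 16.9 CPM in CIE rats and 5.27, 8.09 and 8.56 CPM in Control rats. The other CIE rats, from 12.2 to 16.9 CPM, were above every Control rat, while CIE rat 1, with 377 counts, lay within the Control range. The means were 13.4 ± 4.14 and 7.62 ± 1.24 CPM (SD, n = 6 each), a ratio of 1.76, with a log2 fold change of 0.82 (SE 0.21, edgeR nominal p = 0.00178, FDR = 0.169, exact permutation p = 0.013). Without CIE rat 1 the log2 fold change was 0.97 and the edgeR FDR was 0.0158, and without Control rat 11 the FDR was 0.352. *Abcb1a*, 1 of the 2 rodent genes for P-glycoprotein, had 26, 38.4 and 44 CPM in CIE rats and 25.8, 30.9 and 34.9 CPM in Control rats. In the CIE group 4 of 6 rats exceeded the whole Control range, while the lowest CIE rat was close to the lowest Control rat (log2 fold change 0.25, SE 0.11, edgeR nominal p = 0.0445, FDR = 0.588, exact permutation p = 0.0844). A nominal p below 0.05 was kept in 4 of 12 fits without 1 rat, between 0.00239 without CIE rat 3 and 0.102 without Control rat 9, and the paralog *Abcb1b*, with 241 to 660 counts per rat, may share reads with it.

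The tight junction genes had group differences close to 0 on the same scale. *Cldn5*, the main claudin of brain endothelium, had 54.6, 63.9 and 72.2 CPM in CIE rats and 58.4, 67 and 76.7 CPM in Control rats (log2 fold change -0.04, SE 0.08, edgeR FDR = 0.934, exact permutation p = 0.639). *Ocln*, which encodes the junction protein occludin, had 9.01, 10.4 and 11.4 CPM in CIE rats and 8.27, 10.1 and 11.8 CPM in Control rats (log2 fold change 0.04, SE 0.10, edgeR FDR = 0.939, exact permutation p = 0.628). *Tjp1*, which encodes the scaffold zonula occludens 1 and is transcribed in many cell types, had 83.5, 115 and 140 CPM in CIE rats and 104, 113 and 139 CPM in Control rats (log2 fold change -0.03, SE 0.11, edgeR FDR = 0.964, exact permutation p = 0.857). In each of the 3 genes the ranges of the groups overlapped widely. The intervals of 2 SE to each side ran from -0.21 to 0.13 for *Cldn5*, from -0.15 to 0.24 for *Ocln* and from -0.24 to 0.18 for *Tjp1*.

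The same rats were often at the edge of their group across the 9 genes. CIE rat 6 was the highest of its group for 5 genes (*Slc2a1*, *Mfsd2a*, *Abcb1a*, *Abcg2* and *Tjp1*), CIE rat 1 was the lowest for 4 (*Slc2a1*, *Abcg2*, *Cldn5* and *Ocln*), and CIE rat 3 was the lowest for 3 (*Slco1c1*, *Abcb1a* and *Tjp1*) and the highest for *Cldn5*. In the Control group, rat 10 was the highest for 4 genes and the lowest for *Slc7a5*, rat 8 was the highest for 4 genes, and rat 12 was the lowest for 5. CIE rat 3 also had the lowest level of endothelial markers of its group and Control rat 10 the highest.

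Endothelial markers outside the set were measured to place the barrier genes beside the mean level of other endothelial genes in each punch. Of 20 such genes, which include the receptors *Tie1* and *Tek*, 18 were tested. In the CIE group 8 were nominally lower and 1 nominally higher, beside 4.31% and 4.0% of all genes. Of the 18, 1 passed the 5% FDR in edgeR (0.363% of all genes), and the median log2 fold change was -0.24. The 18 genes did not move alike. Their log2 fold changes ran from -0.70 for *Eltd1* to 0.50 for *Nostrin*, with 15 below 0 and 3 above. Their summed level ran from 410 to 529 CPM in CIE rats and from 460 to 548 CPM in Control rats. The mean log2 CPM of the 18 genes, used as the reference level of each rat, was 3.82 ± 0.12 in CIE rats and 4.03 ± 0.11 in Control rats (SD, n = 6 each), a difference of -0.21 (two-sided exact permutation p = 0.013). The list was chosen with earlier results of these data known, so this p value is no independent test. The reference level averages genes that moved unlike each other and is not a measure of endothelial cell content.

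Relative to that level, that is as the log2 CPM of a gene minus the reference level in the same rat, 7 of the 9 genes differed at an exact permutation p below 0.05, 6 of them higher in the CIE group and *Slco1c1* lower. Of the 20926 tested genes outside the reference, 27.9% differed at that level on the same measure, 27.0% higher and 0.903% lower, and their median difference was 0.21 in log2 units. The groups did not overlap for *Mfsd2a*, which was higher by 0.61 in log2 units, for *Abcb1a*, higher by 0.45, for *Slc2a1*, higher by 0.39, and for *Ocln*, higher by 0.26, each with an exact permutation p = 0.00216, the smallest value that 6 against 6 rats can give. Of the same 20926 genes, 3.34% were higher in the CIE group without overlap. The difference was 0.97 for *Abcg2* (exact permutation p = 0.013), 0.17 for *Cldn5* (exact permutation p = 0.0411) and -0.17 for *Slco1c1* (exact permutation p = 0.026). The value of *Cldn5* was thus below that of the median gene. The difference was also 0.17 for *Tjp1* (exact permutation p = 0.0563), 0.15 for *Slc7a5* (exact permutation p = 0.132) and 0.10 for the *Slco1a2* row (exact permutation p = 0.162). Because the reference level itself was lower in the CIE group, 0.21 of each of these log2 differences comes from the reference. These p values are not adjusted, and all 9 differences share the same reference values.

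**Figure D2:**
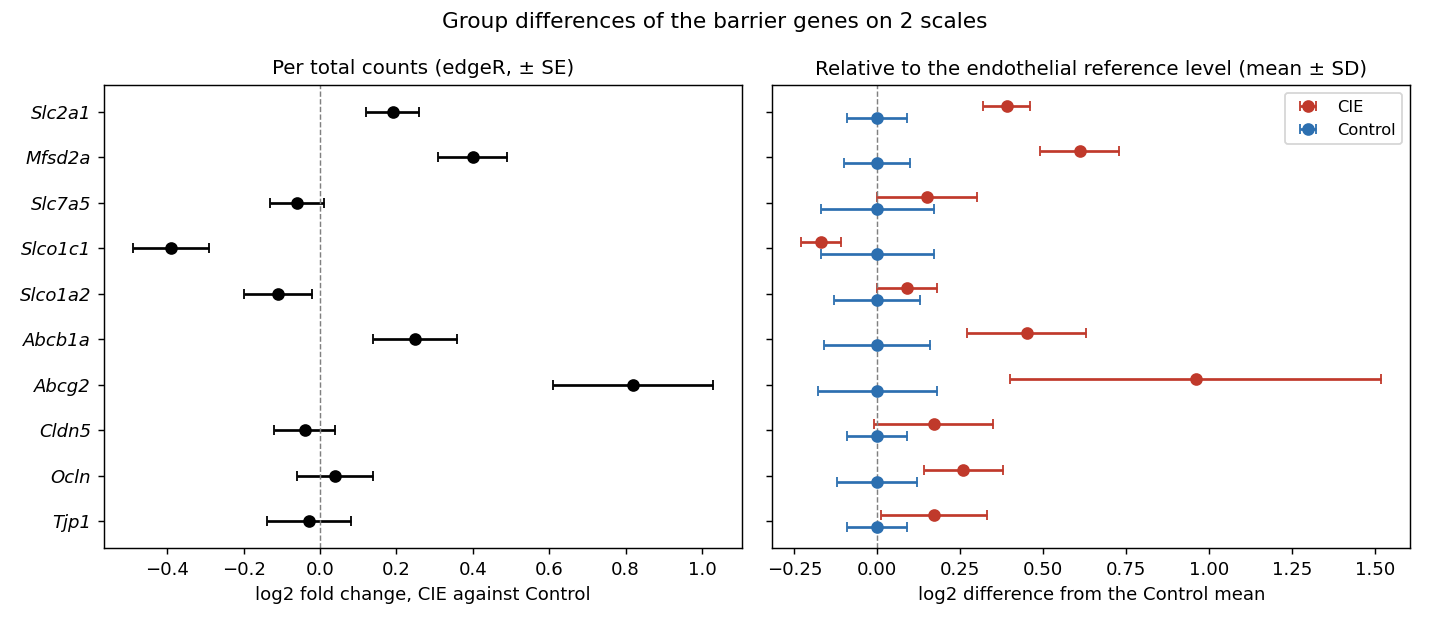
Group differences of the barrier genes in log2 units (horizontal axes). The left panel gives the edgeR log2 fold change ± SE, CIE against Control, on TMM-scaled counts. The right panel gives the level relative to the endothelial reference (mean ± SD, n = 6 a group), set as a difference from the Control mean. *Cldn5*, *Ocln* and *Tjp1* lie at -0.04, 0.04 and -0.03 on the left. Single rats are not drawn on the right, where their ranges did not overlap for *Slc2a1*, *Mfsd2a*, *Abcb1a* and *Ocln*. The ranges of *Abcg2* overlapped, although its SD bars are apart.

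With the reference level as a covariate in the edgeR fit, 5 of the 9 genes had a nominal p below 0.05, where 11.1% of all genes did. All 5 were higher in the CIE group, against 5.43% of all genes. They were *Abcg2* at a log2 fold change of 1.11, *Mfsd2a* at 0.57, *Abcb1a* at 0.50, *Slc2a1* at 0.35 and *Tjp1* at 0.26, and 0 of the 9 passed the 5% FDR in this fit. *Slco1c1* stood at -0.15 (edgeR FDR = 0.623) in it. With the level of 10 myelin genes as the covariate, 4 of the 9 had a nominal p below 0.05, all higher, against 10.7% of all genes, and *Slco1c1* stood at -0.24 (edgeR FDR = 0.519). Both covariates differed between the groups, so these fits also give up part of the contrast.

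Within each group of 6 rats, each barrier gene was also set against the reference level, which gave 20 relations with the *Slco1a2* row counted. Of these, 7 had an exact permutation p below 0.05 and 0 after Benjamini-Hochberg adjustment over the 20, and 8.0% of the 41852 such relations of genes outside the reference had a p below 0.05. In the CIE group the *Slco1a2* row followed the reference closely, with Pearson r = 0.98 (exact permutation p = 0.00278, adjusted 0.0556), Spearman rho = 1.0 (exact permutation p = 0.00278) and r = 0.95 without rats 3 and 6, the 2 farthest from the median. The Control rats did not show this, with r = 0.47 for that row (exact permutation p = 0.349) and r = -0.54 without rats 10 and 12. In the Control group *Abcg2* had r = 0.85 (exact permutation p = 0.00556, adjusted 0.0556), rho = 0.83 (exact permutation p = 0.0583) and r = 0.93 without rats 10 and 12. For *Abcg2* in CIE rats, r was 0.26 (exact permutation p = 0.617). Among CIE rats *Tjp1* had r = 0.85 (exact permutation p = 0.0319, adjusted 0.128), rho = 0.71 (exact permutation p = 0.136) and r = 0.09 without rats 3 and 6, so that this relation rests on those rats.

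Ratios of counts between barrier genes in 1 rat do not depend on how libraries are scaled, and they are given as a description over all pairs. The groups did not overlap in 7 of the 36 pairs of the 9 genes, where the ratio of a tested gene to a barrier gene did not overlap in 3.23% of cases. *Slco1c1* took part in 5 of the 7. The share pools the ratios to all barrier genes and is not a background for *Slco1c1* alone, which had 5 CIE rats below every Control rat in CPM. Its pairs thus partly restate that difference, and the 36 pairs reuse the same 9 genes. Its counts per count of *Mfsd2a* were 3.1, 3.57 and 4.05 at the lowest, median and highest in CIE rats and 5.07, 5.9 and 7.5 in Control rats, a ratio of medians of 0.605. Each CIE rat thus had fewer *Slco1c1* counts per *Mfsd2a* count than each Control rat. Counts of *Slc2a1* per count of *Slco1c1* were 1.77, 2.05 and 2.16 in CIE rats and 1.11, 1.42 and 1.57 in Control rats. Counts of *Slco1c1* per count of *Abcb1a* were 1.44, 1.6 and 1.94 in CIE rats and 2.19, 2.47 and 2.88 in Control rats. The thyroxine carrier was thus low beside the glucose carrier and beside P-glycoprotein in every CIE rat, and the same held beside *Cldn5* and *Ocln*, with ratios of medians of 0.829 and 0.721. Beside *Cldn5* the margin was small, with 1.05 in the highest CIE rat and 1.06 in the lowest Control rat.

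The other 2 pairs that were apart were *Cldn5* to *Mfsd2a* and *Abcb1a* to *Tjp1*. The first had 3.3, 3.95 and 4.43 in CIE rats and 4.47, 5.46 and 5.79 in Control rats. The second had 0.312, 0.317 and 0.345 in CIE rats and 0.224, 0.267 and 0.312 in Control rats, a ratio of medians of 1.19. Its groups were thus apart by less than the last digit shown. The junction pair *Cldn5* to *Ocln* overlapped, with 5.44, 6.04 and 7.33 in CIE rats and 6.26, 6.53 and 7.15 in Control rats. *Abcg2* and *Slc7a5* were apart from no other gene of the 9 in all rats. A count ratio compares the groups and is not a ratio of molecules, since the genes differ in length.

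**Figure D3:**
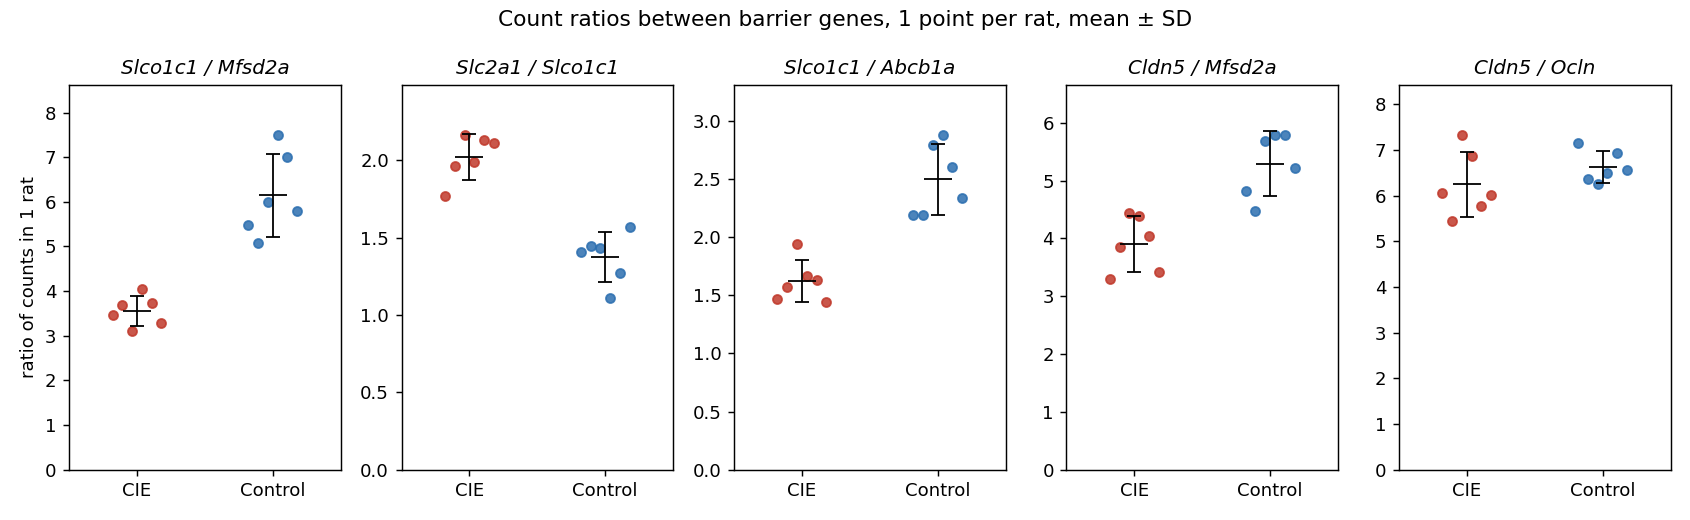
Ratio of counts (vertical axes from 0) of 5 pairs of barrier genes in each of 12 rats, with 1 point per rat and bars at the mean ± SD of 6. The CIE and Control points are apart in the 4 pairs with *Slco1c1* or *Mfsd2a* and overlap in the pair *Cldn5* / *Ocln*.

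A further 61 barrier genes were grouped by role to give the rest of the system, of which 58 were listed by name and 55 were tested. At a nominal p below 0.05, 14 were lower and 5 higher in the CIE group, 19 of 55 beside 8.31% of all genes. Of the 55, 1 passed the 5% FDR in edgeR. The lists were chosen with earlier results of these data known, so the excess over that share is a description and not a test. The median log2 fold change of the 55 genes was -0.07. Among 19 carriers and receptors 6 were nominally lower and 3 nominally higher, with a median of -0.13. *Slc16a1*, the monocarboxylate carrier MCT1, was at 35.3 ± 5.65 CPM in CIE rats and 50.1 ± 5.67 CPM in Control rats (SD, n = 6 each; log2 fold change -0.51, edgeR FDR = 0.0621). The iron exporter ferroportin, *Slc40a1*, was at 3.15 ± 0.413 and 4.71 ± 0.622 CPM (log2 fold change -0.58, edgeR FDR = 0.0758), and the thiamine carrier *Slc19a3* at 3.32 ± 1.02 and 1.68 ± 0.235 CPM (log2 fold change 0.98, edgeR FDR = 0.0765). *Slc3a2*, the heavy chain that pairs with *Slc7a5* in LAT1, was named for that pairing, and its log2 fold change was 0.11 (edgeR FDR = 0.595), with group ranges that overlapped.

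Of the other efflux pumps 3 were tested and 0 passed a nominal p of 0.05 (*Abca1* at a log2 fold change of 0.18, *Abcb1b* at 0.15 and *Abcc4* at 0.10; median 0.15), and *Abcc1* and *Abcc5* were listed at 0 in every rat. Such exact zeros may come from the annotation or the counting and are not read as absence of RNA. Of 14 other junction genes 2 were nominally lower and 0 higher (median -0.04). The lower ones encode adhesion proteins of the endothelial surface, *Pecam1* (log2 fold change -0.31, edgeR FDR = 0.233) and the vascular cadherin *Cdh5* (-0.29, edgeR FDR = 0.574).

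Of 16 genes of Wnt signalling and barrier transcription 4 were nominally lower and 2 higher (median -0.09). *Apcdd1*, an inhibitor of Wnt signalling in barrier endothelium, passed the 5% FDR, with 12.3 to 16.2 CPM in CIE rats and 18.3 to 23.5 CPM in Control rats. These ranges were apart, and the means were 15.1 ± 1.44 and 20.9 ± 2.04 CPM (SD, n = 6 each; log2 fold change -0.47, SE 0.09, edgeR FDR = 0.0322), with an FDR from 0.0281 to 0.104 when 1 rat was left out, the highest without Control rat 9. *Apcdd1* did not pass the 5% FDR without CIE rat 1, 2 or 4, without Control rat 7, 8, 9 or 10, or with the endothelial or myelin level as covariate. *Fzd4*, the receptor of norrin, was at 13.1 ± 2.06 and 9.08 ± 0.701 CPM (log2 fold change 0.53, edgeR FDR = 0.0594), and the Wnt7 co-receptor component *Reck* was at a log2 fold change of 0.33 (edgeR FDR = 0.216). Of 3 caveolae and transcytosis genes the caveolins *Cav1* (log2 fold change -0.35, edgeR FDR = 0.287) and *Cav2* (-0.27, edgeR FDR = 0.464) were nominally lower, and *Plvap*, of the fenestral diaphragm, was at 0.32 (edgeR FDR = 0.791; median of the 3, -0.27).

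**Figure D4:**
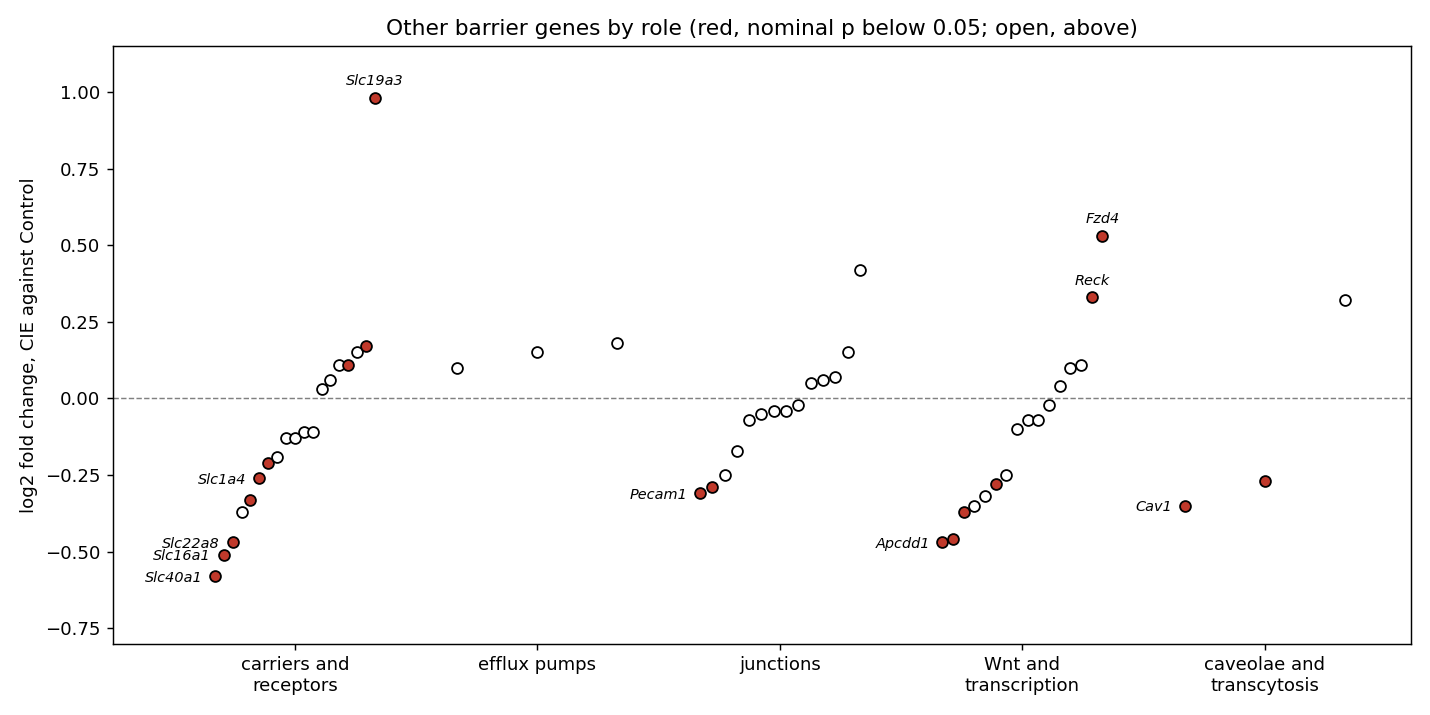
Log2 fold change, CIE against Control (vertical axis), of 55 other barrier genes ordered within 5 roles, 1 point per gene, filled where the edgeR nominal p was below 0.05. Of the 19 filled points 14 lie below 0, and the labelled genes include *Slc19a3* at 0.98 and *Apcdd1* at -0.47.

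Markers of other cells in the punch also differed between the groups, and their part in the values above was not tested beyond the covariate fits. These lists, too, were chosen with earlier results of these data known. Over all genes, 4.31% were nominally lower, 4.0% were nominally higher and 0.363% passed the 5% FDR in edgeR. Of 9 pericyte and smooth muscle genes 6 were nominally lower and 1 passed the 5% FDR (median -0.30; summed CPM 146 to 216 in the CIE group, 183 to 211 in the Control group; *Myh11* listed at 0). All 10 genes of myelinating oligodendrocytes were nominally lower and 0 passed the FDR (median -0.58; summed CPM 5692 to 13768 and 8716 to 16310). Of 10 meningeal fibroblast genes 5 were nominally lower and 3 passed the FDR (median -0.47; 124 to 205 and 204 to 274), and of 7 erythroid genes 5 were nominally lower and 3 passed (median -1.61; 90.3 to 286 and 363 to 662). Astrocyte genes split, with 2 of 10 nominally higher and 3 lower (median -0.04; 2450 to 2995 and 2396 to 2777). Of 10 microglial genes 1 was nominally lower (median -0.07), of 10 neuronal genes 1 was nominally lower (median -0.00), and of 6 choroid plexus genes 0 passed a nominal p of 0.05 (median -0.33; 17 to 44.5 and 9.13 to 33.9), with *Ttr* and *Kcnj13* listed at 0. The zeros of *Myh11*, *Ttr* and *Kcnj13* carry the same doubt.

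For each barrier gene, the gene whose log2 CPM moved most closely with it over the 12 rats, after the group means were removed, is given as a description, the highest of 20934 Pearson coefficients in each case. The nearest genes of the carriers were *Mpzl1* for *Slc2a1* (r = 0.94), *Bnip3* for *Mfsd2a* (0.93), *Zbtb8b* for *Slc7a5* (0.95), *Egln1* for *Slco1c1* (0.96) and *Gpr116* for the *Slco1a2* row (0.93). Those of the pumps were *Trim69* for *Abcb1a* (0.97) and *Colec11* for *Abcg2* (0.95), and those of the junction genes were *Mapkapk3* for *Cldn5* (0.91), *Malsu1* for *Ocln* (0.93) and *Tmcc2* for *Tjp1* (0.98). The 12 points of each coefficient share library scaling, and the 10 barrier genes had 10 different nearest genes.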

How the data were processed

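RNA from CeA punches of 12 rats, 6 per group, was sequenced as 1 library per rat. According to the methods of the study, reads were aligned with BWA and assigned to genes with HTSeq, and the submitters' processing notes name Rnor_6.0 and DESeq2 1.26. The annotation and strand setting are not given in the sources used here. The deposited table holds raw counts per gene, which the authors did not normalize. Groups came from the treatment label. No batch is named in the labels, so none could be separated from group. Each library came from a separate rat. The methods of the study state that rats were group housed, and the labels do not give which rats shared a cage or litter. All p values therefore treat rats as independent.

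Counts were scaled by TMM, filtered with filterByExpr and tested with the quasi-likelihood F test of edgeR 4.0.16 in R 4.3.3, two-sided, adjusted by Benjamini-Hochberg over 20944 genes; 7757 of 37209 genes were at 0 in every rat. DESeq2 1.42.0 and limma 3.58.1 (voom with quality weights), other scalings and filters, 2 covariates and leaving out each of 12 rats were alternatives. CPM are TMM-scaled, and log2 CPM used a prior count of 2. On simulated data for CIE against Control with 20944 genes, 200 of them changed by a log2 fold change of 1, edgeR recovered 132 with 6 false calls, DESeq2 155 with 37, and limma-voom 131 with 5. The genes named are all 10 barrier genes, the 3 with the smallest p of each further barrier list and any passing the FDR, and the nearest gene of each, and 1 gene this rule names is not reported here. *Erg* is in both the endothelial and the Wnt list. Genes and lists were chosen with earlier results of these data known.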

Additional observations from a re-analysis of the deposited data

Results flagged for a closer look

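In 3 of the 20 groups of 6 rats examined for the barrier genes, 1 rat stood apart by Dixon's test at the 95% level, where chance gives about 1 in 20. Control rat 10 had 139 CPM of *Tjp1*, with 115 CPM in the next Control rat. The same rat had 83.8 CPM of *Slc7a5*, below the next Control rat at 97 CPM. CIE rat 6 had 19.3 CPM of *Mfsd2a*, with 16.6 CPM in the next CIE rat. Control rat 10 also had the highest endothelial reference level of its group, at 4.16 log2 CPM.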

How the results depend on the processing

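Genes passing the 5% FDR over the whole table, 76 in edgeR, were 274 with DESeq2, 234 with limma-voom, 10 and 30 with the endothelial and the myelin level as covariate, and 34 to 154 with 1 rat left out. Of the 9 barrier genes 0 passed in edgeR, 3 in DESeq2, 1 in limma-voom and 0 to 1 with 1 rat left out, and 5 had a nominal p below 0.05, 3 to 5 with 1 rat left out. Of the further barrier genes 1 passed in edgeR, 6 in DESeq2, 8 in limma-voom, 0 with either covariate and 0 to 5 with 1 rat left out. Of 200 fold changes of single barrier genes 11 turned in sign. *Cldn5* was at 0.08 with the endothelial covariate, 0.00 without CIE rat 1 and 0.01 without Control rat 10. *Ocln* was at -0.01 without Control rat 7. *Tjp1* was at 0.01 in limma-voom, 0.26 and 0.20 with the endothelial and myelin covariates, 0.05 without CIE rat 3 and 0.03 without Control rat 10. With 1 rat left out the 3 ran from -0.08 to 0.01, -0.01 to 0.10 and -0.10 to 0.05. The *Slco1a2* row was at 0.13 and 0.06 with those covariates. The 7 genes that differed relative to the endothelial level were 6 with summed CPM as the reference, 7 with *Tie1*, *Tek* and *Egfl7* alone and 6 to 8 with 1 rat left out. The causes were not tested. No pairing of CIE with Control rats is given by the study or the labels, so the groups were compared as independent.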
